A study of Mus musculus with 5 samples.

Results

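The fibroblast growth factor (FGF) genes described here were 10 genes picked by symbol, the ligands Fgf8 and Fgf15, the receptors Fgfr1, Fgfr2 and Fgfr3, the feedback inhibitors Spry1, Spry2, Spry4 and Dusp6, and the transcription factor Etv5. All 10 were found among the 23284 gene symbols counted in 5 RNA-seq libraries of mouse embryonic neural tube. Of these symbols, 12703 exceeded 1 CPM (reads scaled to a common library size) in at least 2 libraries and were tested, among them 9 of the 10 FGF genes. The study asked what the erythropoietin receptor (EpoR) contributes to the developing neural tube, and the comparison was between embryos without the receptor and control embryos. The 2 EpoR-null libraries came from embryos homozygous for the deleted receptor allele, which every cell of the embryo carries, so blood and vessels lacked the receptor as well as the neural tube. The 3 control libraries comprised 2 labelled wild type and 1 labelled heterozygote, and the study treated the heterozygote as a control. The labels give embryonic day 8.5 for all 5 libraries while the study's methods give a slightly later stage and describe the controls as littermates. Neither says which libraries shared a litter or that those of a group came from separate litters, so p-values measure the spread between these libraries only.

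FGFs are secreted ligands that bind receptor tyrosine kinases at the cell surface. The active receptor recruits adaptors such as FRS2, GRB2 and the phosphatase SHP2, and signals through RAS to the kinases RAF, MEK and ERK. ERK activity induces the transcription factors of the ETV group together with Sprouty and DUSP proteins, which in turn restrain the cascade, so the transcripts of these genes are widely read as a record of recent FGF signalling. In the embryo FGF8 is made at the anterior neural ridge, the midbrain-hindbrain boundary and the tail end, where it keeps progenitors undifferentiated, and Fgf15 marks parts of the neural tube epithelium.

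Reads assigned to genes numbered between 19316126 and 41169218 per library. Epor itself, on chromosome 9 of GRCm38, was read 57 and 68 times in the wild type libraries, 11 times in the library labelled heterozygote, and 7 and 19 times in the EpoR-null libraries. In CPM this was 2.36 and 1.62, 0.476, and 0.354 and 0.669. The library labelled heterozygote thus lay between the 2 EpoR-null libraries and below both wild type libraries. A list of primitive erythroid genes summed to 44.2 CPM in that library, against 603.4 to 1693 in the other libraries. Whether the low blood transcripts had a part in its Epor level was not tested. The log2 fold change of Epor in EpoR-null against controls was -1.51 with a standard error (SE) of 0.757 (false discovery rate, FDR, 0.28 by the exact test of edgeR). The neural progenitor list (Sox1, Sox2, Sox3, Pax6, Nes, Hes5, Cdh2) summed to between 1506 and 1995 CPM in every library. Its defining gene Sox2 was read in every library, at 220 to 309.2 CPM. Transcripts of other tissues were present too, at amounts that differed between libraries, and their values stand beside the results they moved with. In such bulk tissue, fewer cells of a type and less RNA per cell cannot be told apart.

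None of the 9 tested FGF genes was called as different between EpoR-null and control neural tubes. A gene was called when its p was below 0.001 and its FDR below 0.05 in the exact test of edgeR, the thresholds of the study. By that rule 4.77% of all tested genes were called, of which 3.84% of tested genes were lower and 0.929% higher in EpoR-null, against 0 of 9 FGF genes. An unadjusted p below 0.05 in that test was found for 0 of 9 FGF genes and 2515 of all 12703 tested genes. DESeq2 called 8.09% of all tested genes and none of the FGF genes, though it gave Spry4 no adjusted p. The quasi-likelihood test of edgeR without a replicate block called 0 of all 12703 genes and so says nothing of the FGF genes. The smallest p among the 9, 0.127 in the exact test, belonged to Fgfr3. Nor did any of the 9 have both EpoR-null libraries on the same side of all 3 controls, which 43.3% of tested genes did. The median log2 fold change was 0.24 over the 9 FGF genes and 0.06 over all tested genes.

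**Figure D1:**
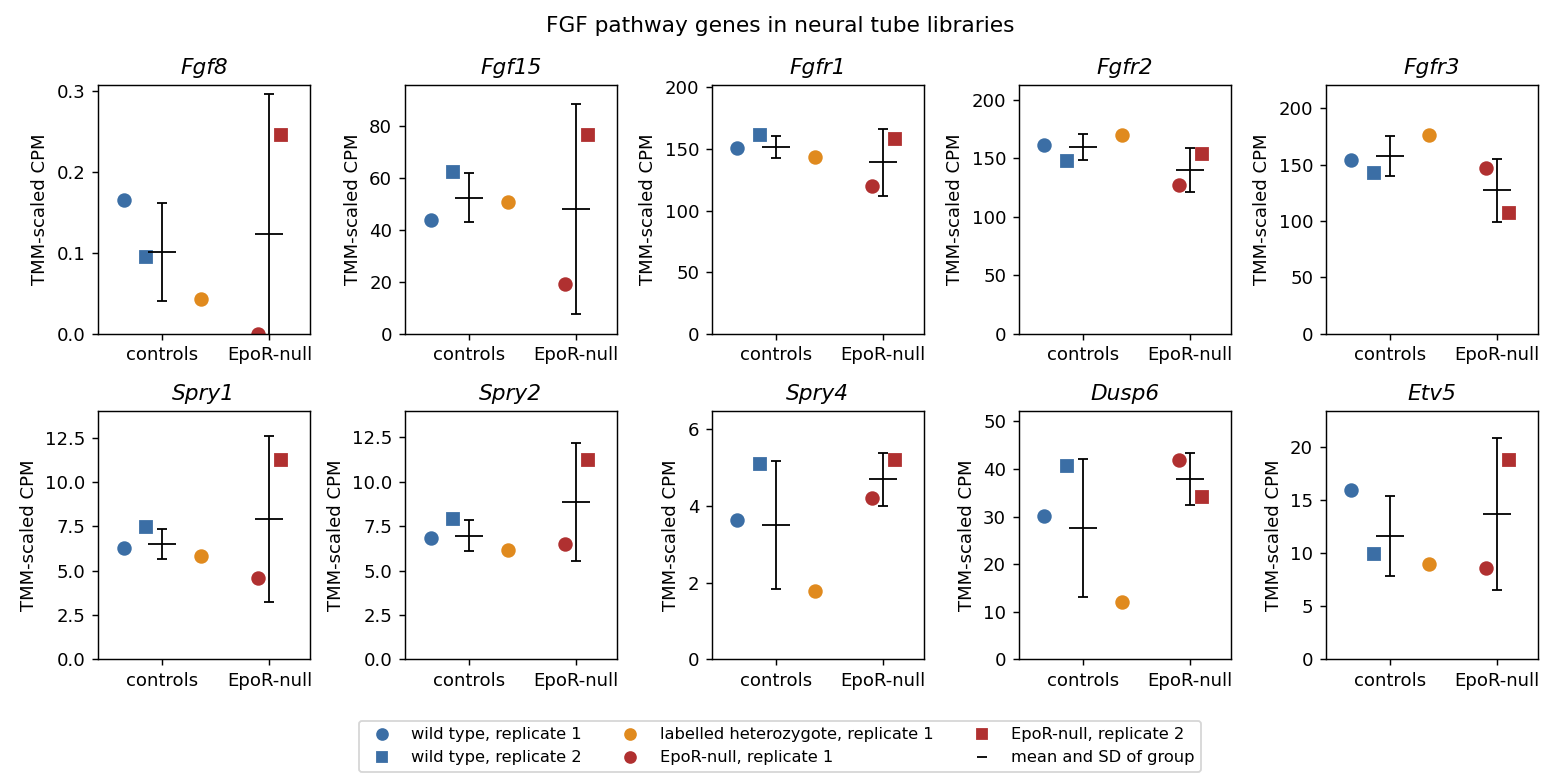
Normalised CPM of each of the 10 FGF genes in the 2 wild type, 1 heterozygote and 2 EpoR-null libraries, 1 panel per gene, with points for libraries and bars for the group mean ± SD. The 3 receptors stay between 107.4 and 176.6 CPM in every library, whereas Fgf15 is at 19.3 in EpoR-null replicate 1 and at 76.5 in replicate 2.

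Fgf8, the ligand of the brain and tail-end signalling centres, lies on chromosome 19 and was all but unread. It was read 4 times in wild type replicate 1, 4 times in wild type replicate 2, once in the library labelled heterozygote, 0 times in EpoR-null replicate 1 and 7 times in EpoR-null replicate 2. A count of 0 in EpoR-null replicate 1 allows up to 3 reads, or 0.1515 CPM, counting error only. The highest of the 5 levels was 0.246 CPM, so no difference was detectable at this depth. The midbrain-hindbrain boundary, a head source of Fgf8, was represented unevenly, its 9 listed genes (En1, En2, Pax2, Pax5, Pax8, Wnt1, Lmx1b, Otx2, Gbx2) summing to between 50.0 and 71.8 CPM. Most of this sum came from Gbx2 (21.2 to 36.0 CPM) and Wnt1 (16.2 to 31.5 CPM), which are also expressed outside the boundary. En2, Pax5 and the midbrain gene Otx2 reached at most 0.141, 0.248 and 0.331 CPM. En1 and Pax2 were highest in EpoR-null replicate 1, at 3.99 and 5.56 CPM, where Fgf8 was read 0 times. Pax8 was at 2.525 and 2.535 CPM in the EpoR-null libraries, with controls from 0.605 to 0.909. It was called higher (log2 fold change 1.65, FDR 0.0024, exact test of edgeR). Lmx1b was below all controls in both EpoR-null libraries, at 0.556 and 0.387 CPM with controls from 0.778 to 1.61, and was not called.

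Fgf15, on chromosome 7, was by contrast well read and set the 2 EpoR-null libraries furthest apart. Its level was 43.7 and 62.3 CPM in the wild type libraries, 50.8 in the library labelled heterozygote, 19.3 in EpoR-null replicate 1 and 76.5 in EpoR-null replicate 2, from 382 reads in the lowest library to 2617 in the deepest. EpoR-null replicate 1 was thus below all controls and EpoR-null replicate 2 above all of them, a ratio of 3.97 between the pair where the controls spanned 1.43-fold. The mean over the controls was 52.3 ± 9.42 CPM (SD, n = 3). That over the EpoR-null libraries was 47.9 ± 40.5 CPM (SD, n = 2). The log2 fold change was -0.13 (SE 0.558, 95% interval -1.22 to 0.97, FDR 0.948, exact test of edgeR), an interval wide in both directions. Leaving out EpoR-null replicate 2 gave -1.44 with an FDR of 1.819e-05 and a call, and leaving out replicate 1 gave 0.55 with an FDR of 0.0491, short of the p threshold, so the direction was set by which library was kept. In both fits a lone EpoR-null library was assumed to vary like the controls, which alone supplied the spread. Fgf15 overlaps the antisense genes Gm26793 and Gm39119 in the annotation, and with no strand setting stated their reads cannot be told apart.

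The 3 receptors were the most evenly expressed of the FGF genes. Fgfr1, on chromosome 8, a receptor used widely by neural and mesodermal progenitors, was at 150.6 and 161.6 CPM in the wild type libraries, 143.8 in the library labelled heterozygote and 120.0 and 158.4 in the EpoR-null libraries. EpoR-null replicate 1 was below all controls and replicate 2 among them, and the log2 fold change was -0.13 (SE 0.176, 95% interval -0.47 to 0.22, FDR 0.743). Fgfr2, on chromosome 7, read 161.7, 147.9, 170.1, 126.8 and 153.2 CPM in the same order. Again only EpoR-null replicate 1 lay below the controls, and the log2 fold change was -0.19 (SE 0.159, 95% interval -0.50 to 0.12, FDR 0.549). Fgfr3, on chromosome 5, which marks ventricular-zone progenitors of the spinal cord, read 154.1, 142.3, 176.6, 147.1 and 107.4 CPM. Here it was EpoR-null replicate 2 that lay below the controls, replicate 1 being among them, with a log2 fold change of -0.31 (SE 0.200, 95% interval -0.70 to 0.08, FDR 0.412, exact test of edgeR). For these 3 genes the intervals were the narrowest of the set and excluded a log2 change of 1 either way, without showing that the levels were equal. Reads of Fgfr1 cannot be told apart from those of Gm16159, an antisense gene that overlaps it.

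The 3 receptors also shared the pool of receptor transcripts about evenly. To compare genes, CPM was divided by the length in kb of the longest annotated transcript (CPM per kb). On that scale Fgfr1, Fgfr2, Fgfr3 and Fgfr4 together came to 103.7 and 100.1 in the wild type libraries and 109.2 in the library labelled heterozygote. They came to 87.7 and 93.4 in the EpoR-null libraries, so both EpoR-null sums were below all control sums. The sum was not tested, nor was it adjusted for the fall of fold changes with transcript length described below. Of all single tested genes, 22.1% had both EpoR-null libraries below all controls, and none of the 3 receptors did. Fgfr1 made up between 26.1% and 33.6% of the sum, Fgfr2 between 32.7% and 37.0%, and Fgfr3 between 27.1% and 39.5%. Fgfr3 held the largest share in EpoR-null replicate 1 (39.5%) and the smallest of the 3 in EpoR-null replicate 2 (27.1%), with the controls between 33.5% and 38.1%. Fgfr4 held 0.619% to 1.13% in controls and 0.676% and 2.28% in EpoR-null.

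**Figure D2:**
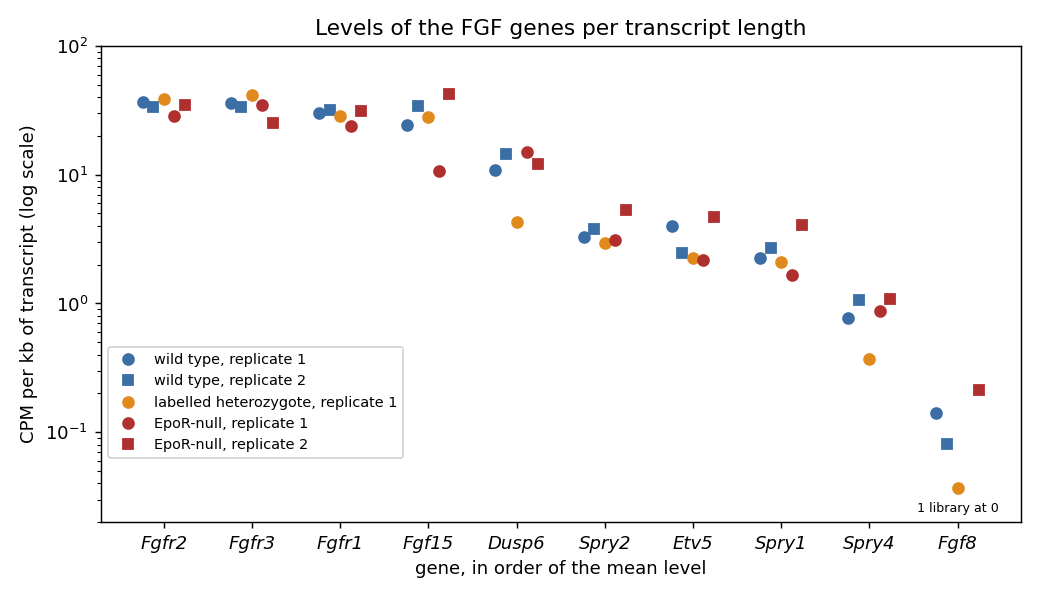
Level of each FGF gene in CPM per kb of its longest transcript on a log axis, with points for libraries. Genes stand in order of the mean over the 5 libraries, and a library at 0 is marked in words. Fgfr2 (mean 34.3), Fgfr3 (34.3), Fgfr1 (29.1) and Fgf15 (27.9) lead, Dusp6 follows at 11.4, and Fgf8 lies lowest at 0.0942.

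Ordered by mean CPM per kb over the 5 libraries, Fgfr2 (34.3), Fgfr3 (34.3), Fgfr1 (29.1) and Fgf15 (27.9) formed the upper group, and the ranges of all 4 overlapped. Dusp6 followed at 11.4, with a range of 4.30 to 14.96 that met that of Fgf15 above and that of Spry2 below. Spry2 (3.70), Etv5 (3.13) and Spry1 (2.55) came next with overlapping ranges, then, with ranges that met no other, Spry4 (0.835) and Fgf8 (0.0942). With the mean transcript length of each gene in place of the longest, Etv5 (6.90) stood above Spry2 (3.70), and no other place changed.

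The Sprouty genes encode intracellular antagonists of receptor tyrosine kinase signalling, and Spry1 was the only 1 of the 3 to follow the pattern of Fgf15. Spry1, on chromosome 3, was at 6.28 and 7.46 CPM in the wild type libraries, 5.84 in the library labelled heterozygote, 4.596 in EpoR-null replicate 1 and 11.2 in replicate 2. The EpoR-null libraries again lay on opposite sides of the controls, with a ratio of 2.44 between them, and the log2 fold change was 0.28 (SE 0.465, 95% interval -0.63 to 1.19, FDR 0.784). Spry2, on chromosome 14, read 6.86, 7.91, 6.14, 6.52 and 11.2 CPM in the same order. EpoR-null replicate 2 was the highest library and replicate 1 lay among the controls, with a log2 fold change of 0.35 (SE 0.369, 95% interval -0.38 to 1.07, FDR 0.648). Spry4, on chromosome 18, was the least read of the 3, with 41 to 213 reads, and gave 3.64 and 5.07 CPM in the wild type libraries, 1.77 in the library labelled heterozygote and 4.19 and 5.18 in EpoR-null. The heterozygote was the low library here, and the EpoR-null values overlapped the wild type values (log2 fold change 0.42, SE 0.529, 95% interval -0.62 to 1.45, FDR 0.702, exact test of edgeR).

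Dusp6, on chromosome 10, which encodes a phosphatase that inactivates ERK, had the highest level per transcript length of the 4 feedback inhibitors. It was at 30.2 and 40.6 CPM in the wild type libraries, 12.02 in the library labelled heterozygote and 41.8 and 34.1 in EpoR-null. Without the heterozygote the groups were close, with a log2 fold change of 0.10 (FDR 0.939), against 0.46 with it (SE 0.506, 95% interval -0.53 to 1.45, FDR 0.656, exact test of edgeR). Etv5, on chromosome 16, an ETS transcription factor induced by FGF, read 15.9 and 9.89 CPM in the wild type libraries, 8.99 in the library labelled heterozygote, and 8.64 and 18.7 in EpoR-null. Its EpoR-null libraries differed 2.17-fold and lay below and above all controls, with a log2 fold change of 0.24 (SE 0.462, 95% interval -0.66 to 1.15, FDR 0.823). The intervals of these 5 inhibitor and target genes each reached above a log2 fold change of 1.

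**Figure D3:**
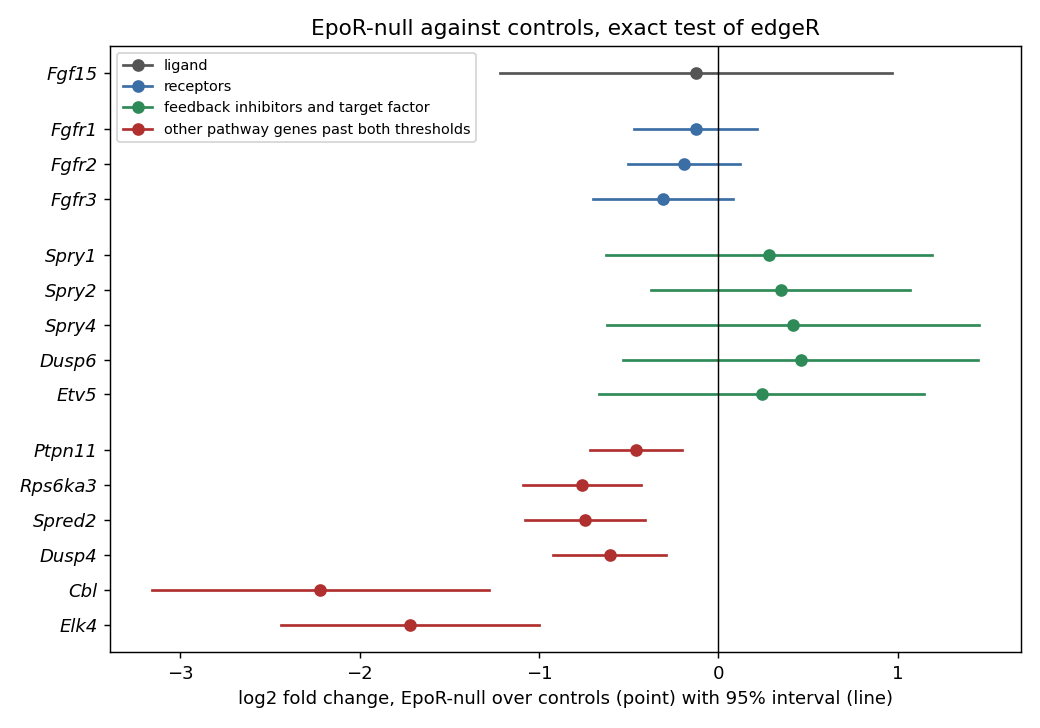
Log2 fold changes of the 9 tested FGF genes and the 6 called genes of the wider pathway in EpoR-null against controls, as points with 95% intervals from the SE. The intervals of all 9 FGF genes cross 0, from Fgfr3 at -0.31 to Dusp6 at 0.46, and those of the 6 called genes lie below it.

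Fgf15, Spry1 and Etv5 were thus below all controls in EpoR-null replicate 1 and above all controls in EpoR-null replicate 2. Etv5 was below by less than counting error, at 8.64 CPM (171 reads) against 8.99 (208 reads) in the library labelled heterozygote. The pattern held for 3 of 9 FGF genes against 10.9% of all tested genes, counted after the values were seen. Other genes of FGF signalling, named here after their values were seen, lay the same way. Fgf3, a ligand of the hindbrain and tail end, was at 0.556 CPM in EpoR-null replicate 1 and 5.21 in replicate 2, with controls from 1.78 to 2.896. Etv4, which is induced together with Etv5, was at 2.12 and 8.06 CPM, with controls from 2.77 to 4.09. Myc was at 22.3 and 72.3 CPM with controls from 34.6 to 57.7, and Fgfr4 at 1.97 and 7.08 CPM with controls from 2.25 to 3.76. Fgf18 went the opposite way, at 3.94 and 1.02 CPM with controls from 1.17 to 1.60. In the wider pathway 10 of 57 tested genes were below all controls in replicate 1 and above them in replicate 2.

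Most tested genes of the tail end lay the same way in these libraries. Of the 9 genes of that list (T, Tbx6, Cdx1, Cdx2, Cdx4, Wnt3a, Nkx1-2, Msgn1, Cyp26a1), 6 were tested and 5 of them were below all controls in EpoR-null replicate 1 and above all controls in replicate 2. The list summed to between 32.0 and 43.8 CPM in controls, 21.4 in EpoR-null replicate 1 and 71.5 in replicate 2. Cdx2, a transcription factor of the tail end, was at 0.152 CPM in replicate 1 and 10.04 in replicate 2, with controls from 1.41 to 3.02. Nkx1-2, expressed in the caudal neural plate, was at 0.455 and 6.80 CPM, with controls from 3.06 to 3.63. Cyp26a1, which breaks down retinoic acid and was too low to test, went the opposite way, at 1.82 and 0.458 CPM with controls from 0.476 to 0.744, and Tbx6 (0.707 and 0.423 CPM) lay among its controls. The newborn neuron list (Tubb3, Dcx, Elavl3, Elavl4, Neurog2, Isl1, Stmn2) went the other way as a sum, at 1073 CPM in replicate 1 and 241.7 in replicate 2, with controls from 323.8 to 541.2. Neurog2 (52.1 and 50.2 CPM) lay among its controls. The part that the tail-end and neuronal transcripts had in the levels of Fgf15, Spry1 and Etv5 was not tested.

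**Figure D4:**
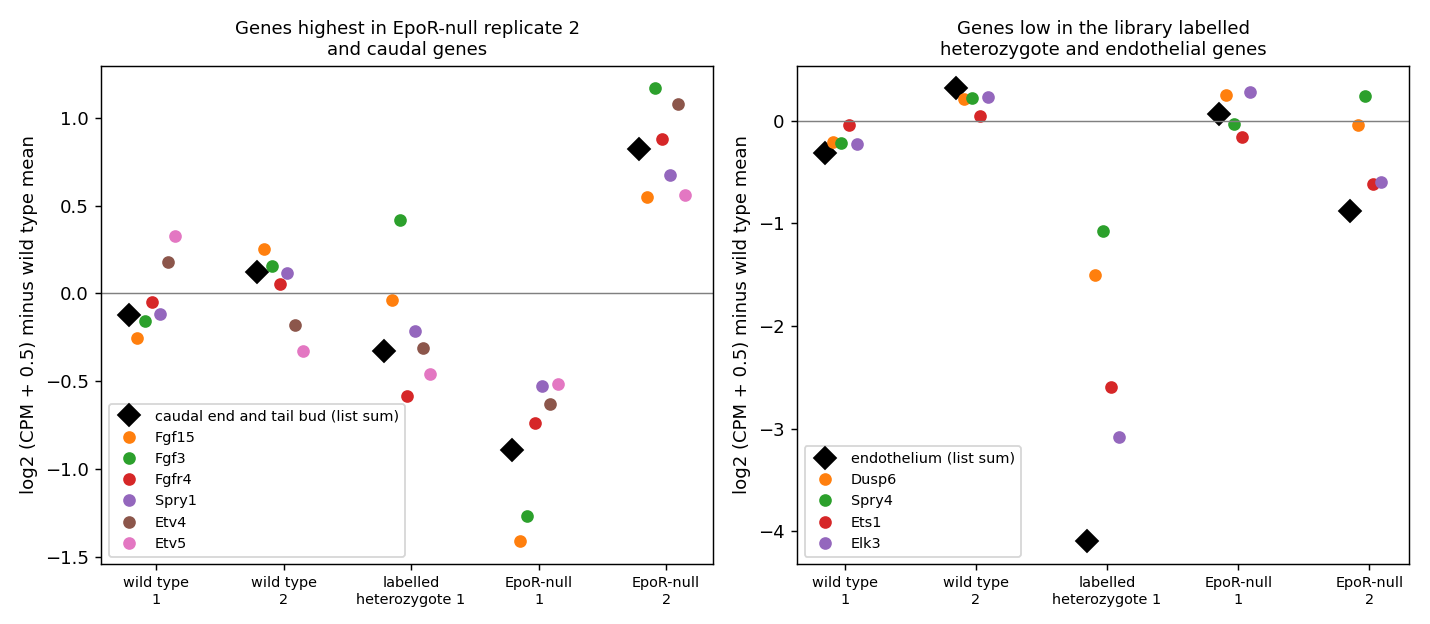
Log2 difference of each library from the mean of the 2 wild type libraries, after adding 0.5 CPM, for FGF genes, other pathway genes and summed marker lists chosen after their values were seen. Fgf15, Spry1, Etv5, Fgf3 and Etv4 lie lowest in EpoR-null replicate 1 and highest in replicate 2, like the tail-end list, and Dusp6 (-1.50) and Spry4 (-1.08) are low in the library labelled heterozygote, like Ets1 (-2.59) and the endothelial list (-4.10).

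The library labelled heterozygote stood apart from the other controls for Dusp6 and Spry4, which were at 12.02 and 1.77 CPM there, the lowest of the 5 libraries for both. Genes of vessels, blood and mesoderm were low in the same library. The endothelial list (Pecam1, Cdh5, Kdr, Tek, Flt1, Emcn) summed to 11.5 CPM there, against 164.6 and 254.6 in wild type and 213.5 and 110.7 in EpoR-null, with Cdh5 at 1.64 CPM. The primitive erythroid list summed to 44.2 CPM there and to between 603.4 and 1693 in the other libraries, although 2 of its 9 genes, Hba-a1 and Hba-a2, which are near-identical copies, were at 0 reads throughout. The paraxial mesoderm list summed to 10.98 CPM there and to 49.6 to 168.1 elsewhere, and the neural crest list to 45.9 and to 112.7 to 187.3. Among the ERK-responsive transcription factors, Ets1, which is active in endothelium and neural crest and also stands in the neural crest list, was at 12.8 CPM there against 51.9 to 82.4 elsewhere, and Elk3 at 2.59 against 16.8 to 31.2. Fgfr2 (170.1 CPM) and Fgfr3 (176.6 CPM) did not share this pattern and were highest in that library. Fgfr1 (143.8 CPM there) was below both wild type libraries (150.6 and 161.6 CPM) and above EpoR-null replicate 1 (120.0 CPM). Whether the low endothelial, blood and mesodermal transcripts had a part in the levels of Dusp6 and Spry4 was not tested. Surface ectoderm genes summed to 6.10 CPM in the library labelled heterozygote and 15.3 to 30.5 elsewhere. Most of this sum came from Krt8 (1.47 CPM there, 7.48 to 16.5 elsewhere) and Krt18 (3.03 CPM there, its lowest level). The listed genes Epcam, Grhl2, Grhl3, Trp63 and Cdh1 reached at most 0.992 CPM. Of these, Epcam, Trp63 and Cdh1 were lowest in that library. Grhl2 was highest there (0.432 CPM), and Grhl3 (0.6485 CPM) lay among the other libraries. Endoderm genes summed to between 6.01 and 12.1 CPM in every library. Most of the endoderm sum came from Foxa1 (5.19 to 6.48 CPM) and Sox17 (0.259 CPM in the library labelled heterozygote, 3.35 to 5.17 elsewhere). The listed genes Ttr, Apoa1, Apoa4, Afp and Cldn6 reached at most 0.669 CPM.

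Of 76 further pathway symbols, 75 were in the counts, Hras being present under Hras1, and 57 were tested. In EpoR-null neural tubes 6 of the 57 fell and 0 rose by the exact test of edgeR, where 3.84% of all tested genes fell and 0.929% rose. Their median log2 fold change was -0.07 against 0.06 over all tested genes. In both EpoR-null libraries 21 of the 57 lay below all controls and 4 above, where 22.1% of all tested genes lay below and 21.2% above. None of the 7 tested ligands (of 20 listed, Fgf20 at 0 reads) and none of the 5 tested receptors and co-receptors was called, with medians of 0.30 and 0.07. The highest mean CPM, not corrected for length, belonged in these lists to Fgf13, an intracellular FGF (16.6 CPM), and Fgfrl1, a receptor without a kinase domain (39.5 CPM). Among 22 adaptors and kinases of the RAS-ERK cascade 2 were lower (median -0.11), among 13 other feedback inhibitors 3 were lower (median -0.35), and among 10 other ERK target transcription factors 1 was lower (median 0.10). Rasa1, which had the highest mean CPM of the inhibitors (93.9), showed a log2 fold change of -0.29 and was not called. Ets1 led the ERK target list at a mean of 59.3 CPM.

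The 6 genes that fell encode proteins with different roles in the cascade. Cbl, the ubiquitin ligase that removes active receptors from the surface, was at 41.5, 34.7 and 41.1 CPM in the 2 wild type libraries and the library labelled heterozygote, and at 12.8 and 4.05 CPM in EpoR-null, from 253 and 115 reads. Its log2 fold change was -2.22 (SE 0.480, FDR 0.00139), the largest of the 6, and the groups did not overlap. It was -3.27 without EpoR-null replicate 1 and -1.61 without EpoR-null replicate 2. Elk4, an ETS factor that binds with SRF and is activated by ERK, was at 12.1, 10.5 and 11.8 CPM against 4.50 and 2.50 CPM (log2 fold change -1.72, SE 0.367, FDR 7.339e-04). Spred2, a Sprouty-related inhibitor of RAF activation, was at 42.5, 43.9 and 38.6 CPM against 24.6 and 25.2 CPM (log2 fold change -0.74, SE 0.171, FDR 0.00112). Dusp4, a nuclear phosphatase of ERK, was at 43.9, 41.9 and 41.9 CPM against 28.7 and 27.3 CPM (log2 fold change -0.61, SE 0.161, FDR 0.00712). Unlike Dusp6, the other phosphatase of the pair, Dusp4 was separated from controls in both EpoR-null libraries, although the difference between the 2 genes was not tested.

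The remaining pair were a kinase and a phosphatase of the cascade itself. Rps6ka3, which encodes the ERK substrate kinase RSK2, was at 75.2, 63.9 and 76.0 CPM in controls and 45.3 and 39.4 CPM in EpoR-null (log2 fold change -0.76, SE 0.168, FDR 6.546e-04). Ptpn11, which encodes SHP2, was at 226.0, 225.9 and 217.2 CPM in controls and 165.1 and 159.2 CPM in EpoR-null (log2 fold change -0.46, SE 0.131, FDR 0.0133, exact test of edgeR). The adaptor Frs2 (log2 fold change -0.57, FDR 0.0227) and Spred1 (-0.51, FDR 0.0251) passed the FDR threshold and not the p threshold. Whether these genes were called depended on the test and on the libraries kept. The quasi-likelihood test of edgeR without a replicate block called none of the 57, as it called none of all genes, with FDR of 0.059 to 0.0877 for the 6. The number of pathway genes called was 0 without wild type replicate 1, 3 without wild type replicate 2, 3 without the library labelled heterozygote, and, with a lone EpoR-null library assumed to vary like the controls, 16 without EpoR-null replicate 1 and 9 without replicate 2. The log2 fold changes moved less, from -0.80 to -0.70 for Spred2, -0.64 to -0.57 for Dusp4, -0.86 to -0.66 for Rps6ka3, -0.49 to -0.44 for Ptpn11 and -2.19 to -1.35 for Elk4 as each library was left out in turn.

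Fold changes in this comparison fell with transcript length. With tested genes divided into 4 equal groups by transcript length, the median log2 fold change was 0.34 in the shortest group, up to 2303 bases, 0.11 and -0.05 in the next, and -0.31 in the longest, from 4950 bases. The trend was steeper in EpoR-null replicate 2. Median log2 differences from the control mean in the shortest and longest groups were 0.44 and -0.48 there, and 0.19 and -0.23 in replicate 1. The transcripts of Ptpn11 (7442 bases), Rps6ka3 (7244) and Cbl (11372) fall in the longest group, as does that of Fgfr1, and those of Fgf15 and Spry2 in the shortest. In a likelihood-ratio test of edgeR with offsets for length and GC content, Ptpn11 had a log2 fold change of -0.07 (FDR 0.999) and Rps6ka3 one of -0.30 (FDR 0.761), so both calls were lost, whereas Cbl (-1.71, FDR 4.012e-04), Elk4 (-1.65, FDR 4.121e-04), Spred2 (-0.67, FDR 0.0116) and Dusp4 (-0.80, FDR 0.00132) kept theirs. With these offsets again 0 of the 9 FGF genes was called. Their log2 fold changes with offsets were -0.45 for Fgf15, -0.01 for Fgfr1, -0.11 for Fgfr2 and -0.34 for Fgfr3. Those of Spry1, Spry2, Spry4, Dusp6 and Etv5 were 0.08, 0.15, 0.55, 0.36 and 0.27.

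Fgfr3 had the smallest p of the FGF genes. Genes outside the FGF, pathway and marker lists were ranked by the root mean square difference of centred log2 CPM over the 5 libraries. The nearest to Fgfr3 were Zbtb10 (0.0294), Rnf214 (0.0304) and Kif3b (0.0337). In all, 331 tested genes outside those lists lay within 0.1 of Fgfr3 by this measure, which uses 5 libraries only.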

How the data were processed

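RNA-seq counts of 5 neural tube libraries were analysed. The authors deposited raw counts per gene symbol, made, per the labels, with Trimmomatic 0.32, TopHat2 2.1.0 on mm9 and HTSeq 0.6.1. The gene annotation and strand setting are not given in the sources used here, and the study's methods name another TopHat version and a human build for RNA-seq. HTSeq drops reads that map to several places or several genes, which lowers near-identical copies and overlapping genes. Rows naming no gene were left out (reads without a feature were 8.12% to 11.0% of uniquely aligned reads, ambiguous ones 1.84% to 2.31%). All pairs of libraries differed by more than counting noise.

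The main test, after the study's methods, was the exact test of edgeR 4.0.16 (R 4.3.3) with TMM scaling and tagwise dispersions, EpoR-null (n = 2) against wild type plus heterozygote (n = 3), for genes over 1 CPM in at least 2 libraries, with Benjamini-Hochberg FDR over all 12703 tested genes. Calls needed p below 0.001 and FDR below 0.05. CPM values are TMM-scaled. SE came from the negative binomial information, and 95% intervals are 1.96 SE either side. Counting limits (3 reads for a count of 0) cover counting error only.

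Alternatives were the quasi-likelihood test with and without a replicate block, DESeq2 1.42.0, RLE scaling, no filter, leaving out each library, and length and GC offsets (loess span 0.5, matched by symbol for 99.1% of tested genes). Scripts were tested on simulated counts. Chromosomes, transcript lengths and overlaps come from GENCODE on GRCm38, so no mm9 coordinates are given. In that annotation the span of Fgfr2 (bases 130162451 to 133123350) also takes in neighbouring genes, among them Ate1, Tacc2 and Nkx1-2. Whether it does so in the annotation used for the counts is not known. No sequence is printed, since the data do not bear on promoters or sites. The named genes were the 10 FGF genes, called genes of the pathway lists, the gene of highest mean CPM in each list and Epor. The 3 genes outside all lists that lay nearest to the FGF gene of smallest p were named too. A gene that this rule names and a marker list are not reported here. Genes named outside this rule are marked as chosen after their values were seen, or belong to marker lists. The FGF genes and all lists were chosen with earlier results of these data known.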

Additional observations from a re-analysis of the deposited data

How the results depend on the processing

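The count of FGF genes called stayed at 0 under the quasi-likelihood test with a replicate block, DESeq2, RLE scaling, no filter and length and GC offsets, and ranged from 0 to 1 when single libraries were left out, the 1 being Fgf15 without EpoR-null replicate 2. Over all genes, 606 calls became 0 in the quasi-likelihood test without a block (3052 genes had an unadjusted p below 0.05), 291 with the replicate block, 1028 with DESeq2, 175 with length and GC offsets, and 115 to 2296 when single libraries were left out. In the wider pathway the count of 6 became 0 in the quasi-likelihood test without a block, 3 with it (Rps6ka3 and Spred2 of the 6, and Braf) and 0 to 16 on leaving out single libraries. Where an EpoR-null library was left out, the lone remaining library was assumed to vary like the controls. Leaving out single libraries turned the direction of Fgf15 (log2 fold changes -1.44 to 0.55, and 0.02 without wild type replicate 2), Fgfr1 (-0.34 to 0.058), Spry1 (-0.51 to 0.78), Spry2 (-0.10 to 0.68) and Etv5 (-0.43 to 0.69). Fgfr2, Fgfr3, Spry4 and Dusp6 kept their direction in every setting run. The cause of these changes was not tested. Replicate numbers pair 2 libraries across groups and neither the labels nor the study's methods, which describe littermate controls, tie a number to a litter. The difference between replicates 2 and 1 correlated between wild type and EpoR-null across 12703 genes, which are not independent (Pearson r 0.43, Spearman rho 0.53). With only 2 libraries lacking the receptor, the intervals of Fgf15, Dusp6, Etv5 and the Sprouty genes were too wide to show a moderate change.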
